A study of Mus musculus with 4 samples.

Results

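The genes of 6 CC chemokines, of the XC chemokine XCL1, of the transmembrane chemokine CXCL16 and of its receptor CXCR6 were followed in mouse thyroid after PD-L1 blockade. The 9 genes (Ccl2, Ccl3, Ccl4, Ccl5, Ccl7, Ccl8, Xcl1, Cxcl16 and Cxcr6) were taken by symbol, and each was among the 16218 genes of the deposited table. The tissue came from NOD.H-2h4 mice, which tend to develop autoimmune thyroid inflammation. The series asked which thyroid genes differ once PD-L1 is blocked, the protein that restrains T cells by binding PD-1. One group of 2 libraries came from mice injected with an isotype control IgG (clones LTF2 and LTF3 in the batch label). The other group of 2 libraries came from mice injected with an antibody against PD-L1 (clones 10F.9G2 and 10F.9G3 in the batch label). Both groups were injected 3 times a week for 2 weeks, and the sources used here give neither age nor sex. Whole thyroid was sequenced, so the values hold follicular cells, immune cells and whatever lay next to the gland. The batch label differs in every library, so it and the library cannot be told apart, and nothing states that the libraries with the same number are paired. The labels do not say that the mice were otherwise independent, so p-values measure the spread between these samples only.

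Chemokines are small secreted proteins that direct leukocyte movement through receptors coupled to G proteins. The CC class has adjacent cysteines near the start of the mature protein, the CXC class has 1 residue between them, and XCL1 lacks one of the pair. CCL2, CCL7 and CCL8, the monocyte chemoattractant proteins, are known for drawing monocytes and other leukocytes, CCL2 and CCL7 through CCR2, and mouse CCL8 also through CCR8. CCL3, CCL4 and CCL5 are made by activated T cells, NK cells and macrophages, and CCL3 and CCL5 act on CCR1. XCL1, from activated CD8 T cells and NK cells, acts on XCR1 of cross-presenting dendritic cells. CXCL16 is held on the cell surface by a mucin stalk or shed by ADAM10 and ADAM17, and CXCR6 marks tissue-resident and effector T cells and NKT cells. In thyroiditis, chemokines of infiltrating and resident cells are known to accompany the lymphocytic infiltrate.

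The class-defining cysteines can be read in the coding sequence, which also shows how far the 8 ligand genes differ. Each line gives 14 codons on the coding strand, 5′ to 3′, from GENCODE transcripts on GRCm38 (the assembly also called mm10), with cysteine codons in capitals.
Ccl2: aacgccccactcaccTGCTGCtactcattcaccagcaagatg
Ccl7: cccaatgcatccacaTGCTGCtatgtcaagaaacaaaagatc
Ccl8: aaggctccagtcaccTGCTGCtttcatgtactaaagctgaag
Ccl3: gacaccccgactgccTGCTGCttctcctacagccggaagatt
Ccl4: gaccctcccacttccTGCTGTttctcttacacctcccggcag
Ccl5: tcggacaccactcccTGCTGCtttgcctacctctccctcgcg
Xcl1: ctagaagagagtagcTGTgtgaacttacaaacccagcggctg
Cxcl16: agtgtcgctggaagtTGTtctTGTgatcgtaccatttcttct
The 6 CC genes have 2 cysteine codons side by side in this window, Xcl1 has 1, and Cxcl16 has 1 codon between its 2. Coding sequences of neighbours in the family were not near-identical. Ccl3 and Ccl4 matched at 69.6% of 270 aligned bases with no shared run longer than 9 bases. Ccl2 and Ccl7 matched at 65.3%, Ccl7 and Ccl8 at 64.2% (longest shared run 17 bases), and Ccl8 and its neighbour Ccl12 at 70.5%. Some pairs of different classes reached similar values, with Ccl3 and Cxcl16 at 65.5% and Ccl4 and Cxcl16 at 65.6%. Others were lower, such as Ccl4 and Xcl1 at 53.5%. Gaps were left out of all these percentages. The coding sequence of Cxcl16 has 738 bases against 276 in Ccl3 and in Ccl4, so placing gaps can raise its values. Taken this way, most of these percentages do not set neighbours apart from other ligand genes.

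Library totals ranged from 75591923 to 79663374.5 counts, at which 3 counts correspond to 0.0377 to 0.0397 CPM (counting error only). The follicular gene Tg took 14.6% to 16.9% of counts in 3 libraries and 4.34% in anti-PD-L1 replicate 1. That library also stood apart in Xist (1.40 CPM against 67.7 to 72.7) and in the Y-linked gene Ddx3y (62.6 CPM against 0.350 to 0.790). This is the pattern of a male, and that of the other libraries is of females, though the labels give no sex. No IgG library had the male pattern, so sex and treatment were partly confounded, and the part of sex was not tested. The values of the 9 genes without anti-PD-L1 replicate 1 are therefore given beside those from all 4 libraries. So are medians of the receptor, ligand and marker lists most related to them. The thyrocyte markers Tg, Tshr, Pax8, Slc5a5 and Nkx2-1 were detected in every library. Over all genes the median log2 fold change, anti-PD-L1 minus IgG, was 0.00021.

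Every one of the 9 genes was higher in either anti-PD-L1 library than in either IgG library, against 16.5% of all genes tested. In bulk tissue, more cells of a type and more RNA per cell cannot be told apart. None passed edgeR's quasi-likelihood test after Benjamini-Hochberg adjustment over 16217 genes, where 0% of genes were called higher and the smallest adjusted p was 0.0635. At an unadjusted p under 0.05 edgeR had 8 of the 9 higher (4.96% of all genes), Ccl7 being the exception, and limma voom, which also called 0 after adjustment, had 9 (5.2% of all genes). DESeq2 called 7 of the 9 higher (2.93% of all genes), the exceptions being Ccl2 and Ccl7. The table lists only genes that reached 100 counts in at least 1 library. Ccl3, Ccl4, Ccl7 and Xcl1 were listed through the anti-PD-L1 libraries alone, as were 337 genes in the whole table. Those 4 genes entered the table only through the group where they were high, so their part in the counts above is no support. Of the 5 genes listed through both groups, DESeq2 called 4. The set was also chosen with results of these data known.

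**Figure D1:**
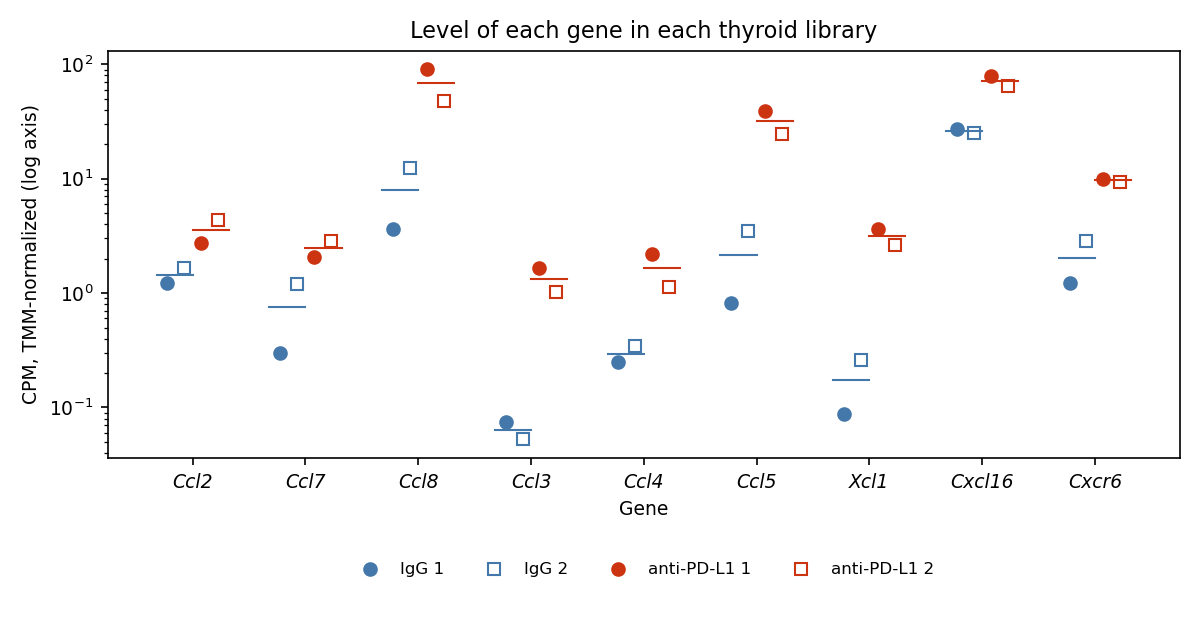
TMM-normalized CPM (log axis) of the 9 genes in each library, with IgG in blue, anti-PD-L1 in red, replicate 1 as filled circles, replicate 2 as open squares and short lines at group means. No gene has overlapping groups, the spread within IgG is widest for Ccl5 (0.813 and 3.52 CPM), and Cxcl16 has the tightest groups in IgG.

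Among the monocyte chemoattractant genes, Ccl8 had the largest fitted fold change. Its level was 3.60 and 12.4 CPM under IgG, and 90.4 and 48.0 CPM under PD-L1 blockade. The lower anti-PD-L1 library was 3.87 times the higher IgG library, and the IgG libraries themselves differed by 3.45 times. The fitted log2 fold change was 3.11 ± 0.73 (SE, n = 2 per group; adjusted p = 0.407 by edgeR and 0.000118 by DESeq2), or 8.65-fold. Without anti-PD-L1 replicate 1 it was 2.58 ± 0.87. Leaving out an IgG library moved it most, to 2.46 without replicate 1 and to 4.26 without replicate 2.

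Ccl2, the gene of the main CCR2 ligand, had the smallest log2 fold change of the 9 genes with all 4 libraries in the fit. It had 1.23 and 1.65 CPM in IgG against 2.72 and 4.33 CPM in anti-PD-L1. The groups were separated by a factor of 1.65, about as wide as the 1.59 times seen within the anti-PD-L1 group. Its log2 fold change was 1.29 ± 0.35 (adjusted p = 0.526 by edgeR and 0.122 by DESeq2), with 1.59 ± 0.32 without anti-PD-L1 replicate 1 and 0.90 without anti-PD-L1 replicate 2. Ccl7, which encodes another CCR2 ligand, had 0.300 and 1.21 CPM against 2.07 and 2.84 CPM. IgG replicate 1 was low for Ccl7, 4.02 times below IgG replicate 2, and the log2 fold change of 1.70 ± 0.71 (adjusted p = 0.923 by edgeR) moved to 1.00 without IgG replicate 1 and 3.02 without IgG replicate 2. Without anti-PD-L1 replicate 1 it was 1.91 ± 0.97. Both Ccl2 and Ccl7 were higher in anti-PD-L1 replicate 2 than in replicate 1, while the other 7 genes were higher in replicate 1.

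Ccl3, Ccl4 and Ccl5 had log2 fold changes between 2.48 and 4.35. Ccl5, which encodes RANTES, was at 0.813 and 3.52 CPM under IgG and at 39.2 and 24.6 CPM under PD-L1 blockade. The lower anti-PD-L1 library was 6.99 times the higher IgG library. The log2 fold change was 3.88 ± 0.80, or 14.7-fold (adjusted p = 0.327 by edgeR and 2.73e-06 by DESeq2). Its size rested on the IgG libraries, with 3.16 without IgG replicate 1 and 5.29 without IgG replicate 2, and it was 3.51 without anti-PD-L1 replicate 1.

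Ccl3, the gene of MIP-1α, was near the limit of detection in the IgG group, with 6 and 4 counts against 122 and 82 counts. In CPM these were 0.0750 and 0.0525 against 1.66 and 1.01. The gap between the groups was the widest of the 9 genes, the lower anti-PD-L1 library being 13.5 times the higher IgG library. Its log2 fold change of 4.35 ± 0.53 (adjusted p = 0.17 by edgeR and 2.45e-06 by DESeq2) was the highest of the set with all 4 libraries. Without IgG replicate 2 it was 4.12, below Ccl5 (5.29), Xcl1 (5.13) and Ccl8 (4.26). Without anti-PD-L1 replicate 1 it was 3.95 ± 0.61. Ccl4, the gene of MIP-1β, had 20 and 26 counts in IgG and 161 and 91 counts in anti-PD-L1, or 0.250 and 0.341 CPM against 2.19 and 1.12 CPM. Its log2 fold change was 2.48 ± 0.50 (adjusted p = 0.312 by edgeR and 0.00562 by DESeq2), and 1.92 ± 0.49 without anti-PD-L1 replicate 1. The DESeq2 call for Ccl4 was lost when any single library was left out, an alternative added after seeing the data.

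Xcl1, the only XC chemokine gene of the set, had 7 and 20 counts in IgG and 266 and 213 counts in anti-PD-L1. Its levels were 0.0875 and 0.263 CPM against 3.62 and 2.63 CPM, with the lower anti-PD-L1 library 10.0 times the higher IgG library. The log2 fold change was 4.15 ± 0.60 (adjusted p = 0.2 by edgeR and 5.54e-08 by DESeq2), 3.90 ± 0.74 without anti-PD-L1 replicate 1, 3.54 without IgG replicate 1 and 5.13 without IgG replicate 2. An exon of the antisense transcript Gm20743 overlaps 98 bases of Xcl1 exons, and strand use in counting is not given. Gm20743 itself had 1.11 and 1.31 CPM against 1.46 and 0.987 CPM, with overlapping groups.

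CXCL16 and its receptor formed the remaining pair. Cxcl16 had 27.3 and 25.3 CPM in IgG and 78.7 and 64.4 CPM in anti-PD-L1, and its libraries differed by 1.08 times within IgG and 1.22 times within anti-PD-L1. This tight spread gave the smallest standard error of the set at a modest fold, with a log2 fold change of 1.44 ± 0.17, or 2.72-fold (adjusted p = 0.17 by edgeR and 8.56e-08 by DESeq2). Without anti-PD-L1 replicate 1 it was 1.29 ± 0.11. Zmynd15, on the opposite strand, shares up to 552 exonic bases with Cxcl16, and its log2 fold change was 1.26 ± 0.21, with 2.68 and 2.99 CPM against 6.70 and 6.85 CPM. Whether reads of the overlap were counted to either gene was not tested. Cxcr6 had 1.21 and 2.85 CPM against 9.95 and 9.39 CPM, so that the anti-PD-L1 libraries lay within 1.06 times of each other and the IgG libraries within 2.35 times. Its log2 fold change was 2.25 ± 0.47 (adjusted p = 0.332 by edgeR and 0.000519 by DESeq2) and 2.21 ± 0.63 without anti-PD-L1 replicate 1, with 1.74 without IgG replicate 1 and 2.99 without IgG replicate 2. The sheddase genes Adam10 and Adam17 had log2 fold changes of 0.18 ± 0.17 and 0.25 ± 0.15, and neither was called by edgeR or DESeq2.

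**Figure D2:**
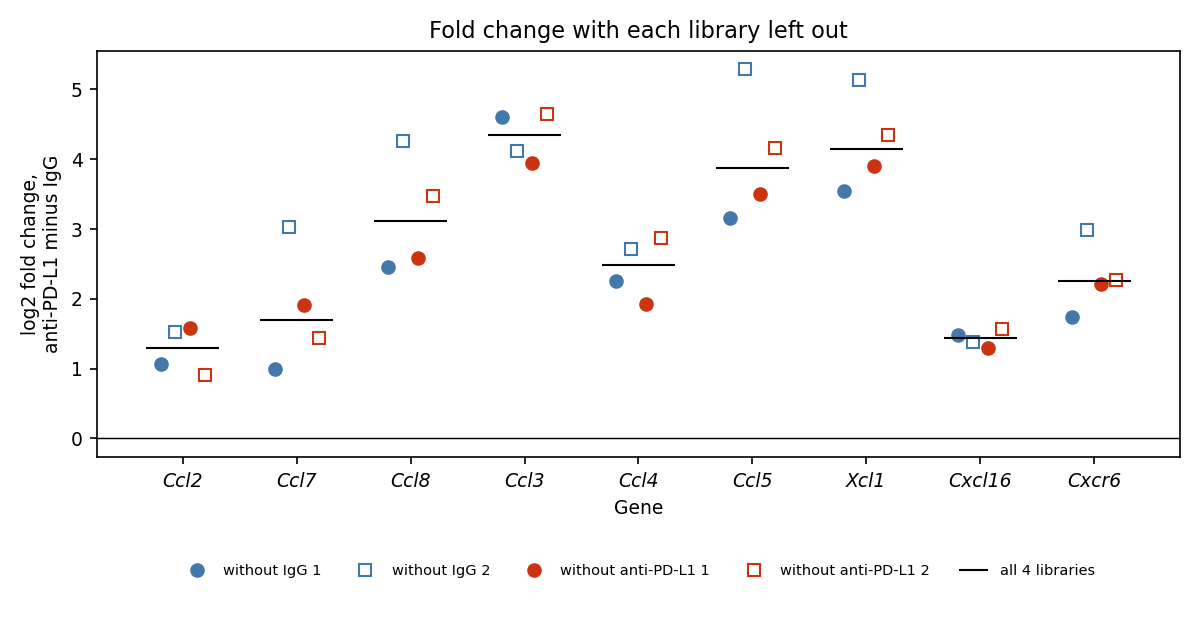
Log2 fold change (anti-PD-L1 minus IgG, edgeR) of each of the 9 genes with 1 library left out in turn (blue, an IgG library; red, an anti-PD-L1 library; circles, replicate 1; squares, replicate 2), beside the value from all 4 libraries (black line). All values lie above 0, and Ccl7, Ccl8, Ccl5, Xcl1 and Cxcr6 are highest without IgG replicate 2 and lowest without IgG replicate 1.

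A higher level was seen for 7 of the 9 genes in IgG replicate 2 than in IgG replicate 1, the exceptions being Ccl3 and Cxcl16. The 2 IgG libraries therefore bound most fold changes, and the fold changes of Ccl5, Xcl1, Ccl8, Ccl7 and Cxcr6 differed by more than 1 on the log2 scale between the fits that left out one or the other. DESeq2 called 5 of the 9 higher without IgG replicate 1 (1.21% of all genes in that fit) and 6 without IgG replicate 2 (3.03%). It called 5 without anti-PD-L1 replicate 1 (2.98%) and 5 without anti-PD-L1 replicate 2 (2.65%). Ccl5, Xcl1 and Cxcr6 were called in all 4 of these fits. Ccl3 was not called without anti-PD-L1 replicate 1, Ccl8 not without anti-PD-L1 replicate 2, and Cxcl16 not without either IgG library, while Ccl7 was called without IgG replicate 2.

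Levels of different genes were compared as CPM per kb of exon sequence. Under IgG, Cxcl16 (9.04 and 8.36 CPM per kb) and Ccl8 (7.05 and 24.3) stood at the top, in either order. Ccl5 (0.847 and 3.67), Ccl2 (1.08 and 1.45), Cxcr6 (0.628 and 1.48) and Ccl7 (0.375 and 1.51) followed with overlapping ranges. Ccl3 was lowest with 0.0980 and 0.0686 CPM per kb. In the anti-PD-L1 libraries Ccl8 led with 177 and 93.9 CPM per kb. Ccl5 followed at 40.8 and 25.6, overlapping with Cxcl16 at 26.0 and 21.3, and Xcl1 came next at 6.92 and 5.03, overlapping with Cxcr6 at 5.15 and 4.86. Ccl2, Ccl7, Ccl4 and Ccl3 lay between 1.32 and 3.81 CPM per kb, each overlapping with the next. The ligand of largest share thus differed between the libraries. Ccl8 held 37.0% and 60.2% of the summed CPM per kb of the 8 ligands in IgG and 67.8% and 60.1% in anti-PD-L1. Cxcl16 held 47.5% and 20.7% against 9.97% and 13.6%, and Ccl5 4.45% and 9.08% against 15.6% and 16.4%.

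The 6 CC genes lie on chromosome 11 (GRCm38) in 2 clusters, each of which also holds other CC genes. The clusters are 1220 kb apart, from the annotated end of Ccl1 (82176657 to 82305690) to the start of Ccl5. The first cluster runs from Ccl2 (82035571 to 82037453) and Ccl7 (82045712 to 82047525) through Ccl11 and Ccl12 to Ccl8 (82115185 to 82116799) and Ccl1. The second runs from Ccl5 (83525778 to 83530518) through Ccl9 and Ccl6 to Ccl3 (83647844 to 83649355) and Ccl4 (83662584 to 83664683). Cxcl16 lies elsewhere on chromosome 11 (70453983 to 70459984), Xcl1 on chromosome 1 (164931644 to 164935527) and Cxcr6 on chromosome 9 (123806475 to 123811760).

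Genes inside the clusters that are not of the set also had higher values. All 5 (Ccl11, Ccl12, Ccl1, Ccl9 and Ccl6) were higher in each anti-PD-L1 library than in each IgG library, against 16.5% of all genes tested. Their log2 fold changes ran from 0.65 to 2.26, and DESeq2 called 3 (2.93% of all genes). Ccl12, the gene of MCP-5 beside Ccl8, was at 0.713 and 0.565 CPM under IgG and at 3.02 and 3.11 CPM under blockade (2.26 ± 0.28 on the log2 scale, adjusted p = 0.172 by edgeR), a fold change above those of Ccl2 and Ccl7 in the same cluster and below that of Ccl8. Ccl11, which encodes the eosinophil chemoattractant eotaxin, had 10.9 and 10.6 CPM against 16.8 and 16.9 CPM (0.65 ± 0.16, adjusted p = 0.42 by edgeR). Ccl9 and Ccl6, both ligand genes of CCR1, had log2 fold changes of 1.23 ± 0.25 and 1.13 ± 0.32, below those of Ccl5, Ccl3 and Ccl4 around them. Ccl1, the gene of a CCR8 ligand, had 1.56 ± 0.31. Ccl1 and Ccl12 were listed through the anti-PD-L1 libraries alone, so their part in these counts is no support. Of Ccl11, Ccl9 and Ccl6, listed through both groups, DESeq2 called Ccl9 alone.

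**Figure D3:**
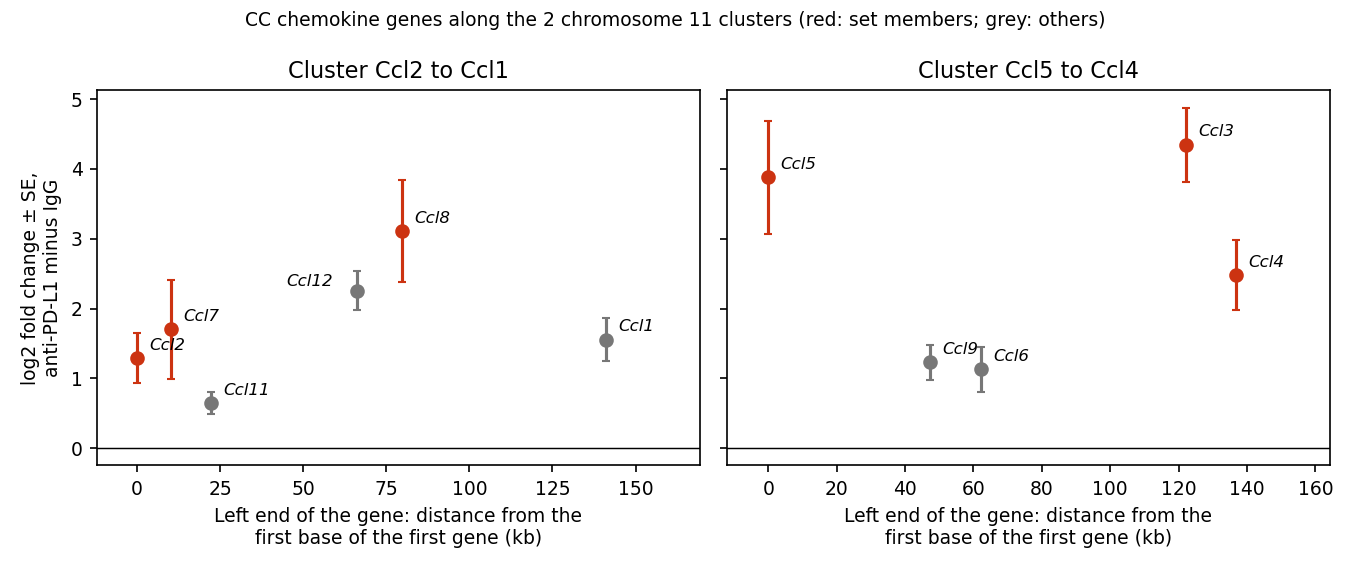
Log2 fold change ± SE (edgeR, n = 2 per group) of each CC gene against the distance in kb of its left end from the first base of its cluster, with genes of the set in red and the others in grey. All 11 points lie above 0, and in the second cluster Ccl9 and Ccl6 sit lower than Ccl5, Ccl3 and Ccl4.

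CC ligand genes outside these clusters mostly had overlapping groups. The 5 listed were Ccl20, Ccl22, Ccl25, Ccl27a and Ccl28, named after their values were seen. Their median log2 fold change was 0.049. In 1 of them the groups did not overlap, higher in anti-PD-L1 (16.5% of all genes tested). That gene was Ccl22, a ligand gene of CCR4 made by dendritic cells and macrophages, with 0.951 and 2.99 CPM against 11.4 and 10.9 CPM (2.50 ± 0.60, adjusted p = 0.0015 by DESeq2). Ccl28, a mucosal epithelial chemokine gene, had 5.75 and 53.3 CPM in IgG and 21.9 and 10.9 CPM in anti-PD-L1. The summed level of 4 mucosal gland genes was 3336 and 12349 CPM in IgG and 22757 and 6512 CPM in anti-PD-L1, and its part in the Ccl28 values was not tested. Over the 10 listed CC ligand genes outside the set the median was 0.89, and 0.80 without anti-PD-L1 replicate 1. With all 4 libraries, DESeq2 called 4 of these genes higher (2.93% of all genes) and edgeR 0. Over the 8 of them listed through both groups the median was 0.39, with 2 called higher by DESeq2. Ccl17 and Ccl24 were not analysed here.

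Receptor genes of these ligands were mostly higher as well. Of 6 receptor genes, 4 had groups that did not overlap, all higher (16.5% of all genes tested). DESeq2 called 3 higher (2.93% of all genes) and edgeR 0. The median log2 fold change was 1.79 (1.86 without anti-PD-L1 replicate 1). Of the 5 listed through both groups, 3 were higher without overlap and the median was 1.30. Xcr1, the receptor gene for XCL1, had 0.425 and 1.37 CPM against 10.4 and 14.2 CPM (3.78 ± 0.65, adjusted p = 0.241 by edgeR). Ccr2, the monocyte receptor gene for CCL2 and CCL7, had 4.99 and 9.35 CPM against 22.6 and 46.3 CPM (2.27 ± 0.50, adjusted p = 0.373 by edgeR). Like Ccl2 and Ccl7, Ccr2 was higher in anti-PD-L1 replicate 2. This order was not particular to them, as Xcr1 and the macrophage and monocyte markers Adgre1, Csf1r and Mertk shared it. The markers Cd68, C1qa, Fcgr1 and Ly6c2 were higher in anti-PD-L1 replicate 1. The other 4 receptor genes were named after their values were seen. Ccr3 (3.46 ± 0.81, listed through the anti-PD-L1 libraries alone) and Ccr1 (1.30 ± 0.55) had groups that did not overlap, while the atypical receptor genes Ackr1 (0.06 ± 0.26) and Ackr2 (0.27 ± 0.44), whose products bind chemokines without G protein signalling, had overlapping groups. Cxcr6, Xcr1, Ccr1, Ccr3 and Ccr2 lie in 307 kb of chromosome 9, from 123806475 to 124113557.

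**Figure D4:**
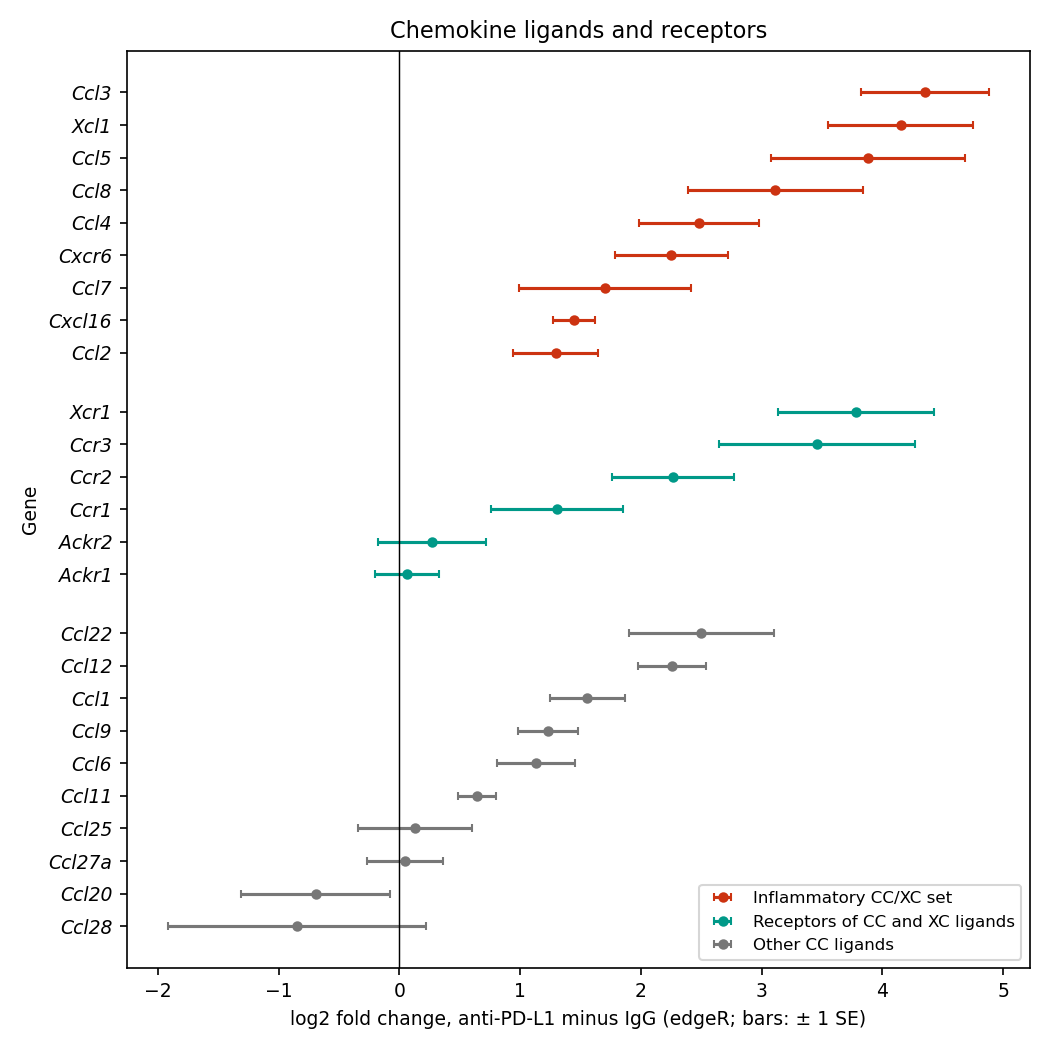
Log2 fold change (anti-PD-L1 minus IgG, edgeR, bars ± 1 SE, n = 2 per group) of the 9 genes (red), 6 receptor genes (green) and 10 other CC ligand genes (grey), each group sorted by value. The set runs from 1.29 for Ccl2 to 4.35 for Ccl3, the receptors from 0.06 for Ackr1 to 3.78 for Xcr1, and the other ligands from −0.85 for Ccl28 to 2.50 for Ccl22.

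Markers of the cells that make or bear these proteins were higher in the same libraries. Of all genes tested, 16.5% were higher without overlap. All 7 T and NK cell markers listed through both groups were higher without overlap, with a median log2 fold change of 2.39. The other two, Gzmb and Ncr1, were listed through the anti-PD-L1 libraries alone. All 9 together had a median of 2.75 (2.69 with anti-PD-L1 replicate 1 left out) and a summed level of 9.25 and 20.7 CPM against 91.0 and 86.2 CPM. Cd3g and Cd3d, subunit genes of the T cell receptor complex, had log2 fold changes of 2.39 ± 0.33 and 2.12 ± 0.51. Of 7 macrophage and monocyte markers 6 were higher without overlap (median 2.04, or 2.05 without anti-PD-L1 replicate 1, summed level 116 and 151 CPM against 470 and 466 CPM), among them C1qa (2.16 ± 0.26) and Csf1r (1.18 ± 0.23), while Mertk overlapped. The 4 markers of cross-presenting dendritic cells listed through both groups were higher without overlap (median 1.20), and Clec9a and Batf3 were listed through the anti-PD-L1 libraries alone. All 6 together had a median of 1.62 (1.66 with anti-PD-L1 replicate 1 left out) and a summed level of 70.7 and 93.4 CPM against 182 and 213 CPM. B cell markers overlapped in 3 of 3 genes (summed level 9.58 and 61.3 CPM against 80.5 and 37.9 CPM). Mast cell markers overlapped in 5 of 5, endothelial markers in 3 of 3 and thyrocyte markers in 5 of 5. Lymph node genes overlapped in 4 of 4 (summed level 5.32 and 59.8 CPM against 18.1 and 6.90 CPM), as did squamous epithelial keratins in 5 of 5 and muscle genes in 3 of 3. No listed marker of these lists was at 0. The part of cell numbers in the chemokine values was not tested.

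Set against the summed T and NK markers, Ccl5, Xcl1 and Cxcr6 differed among themselves. Ccl4, also known from T and NK cells, was set against neither this sum nor that of macrophage and monocyte markers. Ccl3 was set only against the macrophage and monocyte sum, and Ccl5 only against the T and NK sum. Ccl5 was 0.0878 and 0.170 of that sum under IgG and 0.431 and 0.285 under PD-L1 blockade, and Xcl1 0.00946 and 0.0127 against 0.0398 and 0.0305. Both ratios were therefore higher in each anti-PD-L1 library. For Cxcr6 the ratio was 0.131 and 0.138 in IgG and 0.109 and 0.109 in anti-PD-L1, slightly lower in both. These ratios were chosen after the files had been examined, and their differences were not tested.

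Against the summed macrophage and monocyte markers, Ccl3 was 0.000647 and 0.000347 in IgG and 0.00353 and 0.00217 in anti-PD-L1, and Ccl8 0.0311 and 0.0820 against 0.192 and 0.103. Ccl2 gave 0.0106 and 0.0109 against 0.00579 and 0.00929, lower in both anti-PD-L1 libraries. Ccl7 (0.00259 and 0.00798 against 0.00440 and 0.00609) overlapped. Cxcl16 (0.235 and 0.167 against 0.167 and 0.138) reached in IgG replicate 2 almost the value of anti-PD-L1 replicate 1. Dividing by these sums thus left higher ratios for Ccl5, Xcl1, Ccl3 and Ccl8 and not for Cxcr6, Ccl2, Ccl7 or Cxcl16. Xcl1 and Ccl3 were listed through the anti-PD-L1 libraries alone, so their higher ratios are no support. The same listing held for Ccl7 and, within the T and NK sum, for Gzmb and Ncr1. The sums mix genes of several cell types, and Csf1r, Cd68 and Ly6c2 are not confined to one of them. C1qa alone gave 55.8 and 76.0 CPM of the macrophage and monocyte sum of 116 and 151 CPM in IgG. In anti-PD-L1 it gave 316 and 272 CPM of 470 and 466 CPM. The log2 fold change was 2.16 for C1qa and 1.18 for Csf1r, against 1.29 for Ccl2 and 1.44 for Cxcl16. The ratios of Ccl2 and Cxcl16 therefore hold for this sum and not for each of its markers.

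**Figure D5:**
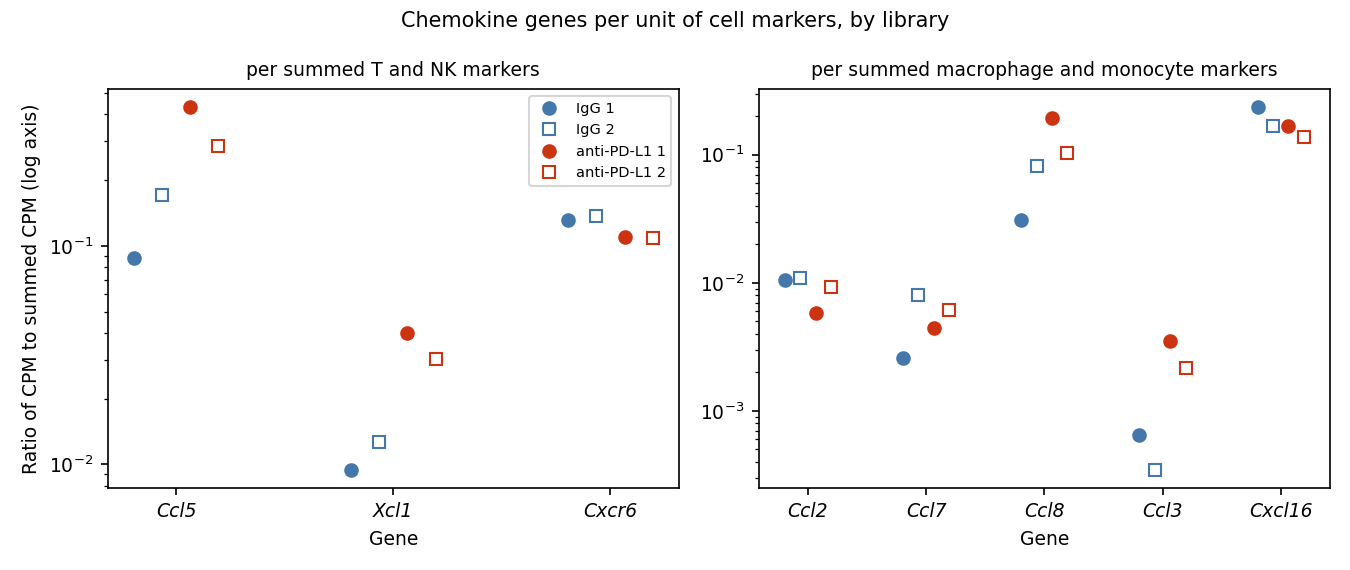
CPM of each gene divided by the summed CPM of 9 T and NK markers (left) or 7 macrophage and monocyte markers (right), on log axes, by library (IgG blue, anti-PD-L1 red, replicate 1 circles, replicate 2 squares). Ccl5, Xcl1, Ccl8 and Ccl3 have both anti-PD-L1 points above both IgG points, and Cxcr6 and Ccl2 have them below.

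Genes that induce chemokines were less uniform. Ifng, the gene of interferon gamma, had 1.151 and 1.35 CPM against 2.84 and 2.95 CPM (1.21 ± 0.25, adjusted p = 0.322 by edgeR and 0.0284 by DESeq2). Il1b had 0.725 and 4.53 CPM against 8.02 and 4.55 CPM, so that IgG replicate 2 and anti-PD-L1 replicate 2 were nearly level. Csf1, the gene of a macrophage growth factor, had a log2 fold change of 0.41 ± 0.18. Tnf, named after its values were seen, had 1.49 and 1.75 CPM against 3.51 and 0.987 CPM, with overlapping groups.

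Among other chemokine families, all 4 genes of the CXCR3 axis were higher without overlap between the groups (16.5% of all genes tested). DESeq2 called all 4 (2.93% of all genes). Cxcl9, Cxcl10 and Cxcl11, genes of interferon gamma-inducible T cell chemoattractants, had log2 fold changes of 5.16 ± 0.93, 3.85 ± 0.35 and 1.62 ± 0.44, and Cxcr3 had 4.11 ± 0.70. Of these 4, Cxcl9 lay above the range of the 9 genes and the others within it, and Cxcl11 was named after its values were seen. Their median was 3.98, and 3.99 without anti-PD-L1 replicate 1. Neutrophil chemokine genes had log2 fold changes below 0 in 4 of 4, and none was called by edgeR or DESeq2. Cxcl5 had 8.19 and 66.0 CPM in IgG and 5.69 and 0.568 CPM in anti-PD-L1 (−3.57 ± 1.53), so that its size rested on IgG replicate 2 and anti-PD-L1 replicate 2. Cxcl1 (−0.93 ± 0.31) and Cxcl3 (−2.01 ± 1.54, overlapping) were listed through the IgG libraries alone. Ppbp, named after its values were seen, had overlapping groups (−0.39 ± 1.40). The difference between families was not tested, and the Cxcl3 cell of anti-PD-L1 replicate 2 was blank and read as 0.

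Promoter sequence, from 250 bases before to 50 after the start, was found for 4 of the 9 genes (Ccl3, Ccl8, Xcl1 and Cxcr6) in RefSeq on GRCm38.p6. That of Ccl8, the ligand of highest level per kb after PD-L1 blockade, is on the plus strand at chr11:82114935-82115234 and is shown 5′ to 3′ with the TATA box match in capitals.
Ccl8: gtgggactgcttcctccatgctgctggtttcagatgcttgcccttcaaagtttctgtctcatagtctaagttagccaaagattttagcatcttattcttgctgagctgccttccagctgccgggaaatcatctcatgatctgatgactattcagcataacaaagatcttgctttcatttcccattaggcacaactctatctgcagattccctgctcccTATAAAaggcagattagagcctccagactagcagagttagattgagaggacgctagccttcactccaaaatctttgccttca
The letters TATAAA, searched on both strands, began 32 bases before the start in Ccl8 and 31 bases before it in the neighbouring Ccl12. They occur in 13.6% of all 32851 promoters of this length, and had no match in the windows of Ccl3, Xcl1 or Cxcr6. Of other genes searched, Ccl9 had matches 224, 94 and 92 bases before the start and Xcr1 160 bases before it. Ccl6, Ccr1 and Ccr2 had none. The interferon gamma-activated site TTCNNNGAA, searched in the same way and found in 8.3% of promoters, had no match in the windows of Ccl3, Ccl8, Xcl1 or Cxcr6. These are matches of letters in a short window and describe no binding.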

How the data were processed

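Poly(A)-selected RNA of 4 mouse thyroids was sequenced as paired-end reads, per the labels' protocols. The authors deposited expected counts per gene symbol, not normalized, and BWA and mm10 are named without role or version in the submitters' processing notes. The counting program, its annotation and strand use, and any filter on genes, are likewise not stated in those sources. Of 16218 genes 3328 had a count ending in 0.5, and 13 blank cells were read as 0.

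Counts were rounded and tested with edgeR 4.0.16 (R 4.3.3): filterByExpr (16217 genes kept), TMM, robust quasi-likelihood F test on group, Benjamini-Hochberg over all genes, threshold 0.05, 2 residual degrees of freedom. Each SE is the size of the log2 fold change over the root of its F statistic. CPM are TMM-normalized. Exon lengths and coordinates came from GENCODE M21 (GRCm38), and alignments used Biopython 1.88. In simulated counts edgeR recovered the sizes of known changes, missed most of the small ones, and made a larger share of false calls than its threshold allows. Alternatives were other scalings and filters, DESeq2 1.42.0, limma 3.58.1 voom, a replicate block, an adjusted p under 0.10 and each library left out. DESeq2 with each library left out was added after seeing the data.

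The 9 genes and all lists were chosen with earlier results of these data known. Named genes were the 9, the 3 of smallest p of each pathway list and list genes lying between them on the chromosome, 2 markers of highest level per cell list, and the 5 genes of most similar profile. Others are said to be chosen after their values were seen. A gene of the receptor list and one of the thyrocyte list are not reported here and were left out of those lists' counts.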

Additional observations from a re-analysis of the deposited data

How the results depend on the processing

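No direction of the 9 genes changed under any alternative, and none of the 9 was called in any edgeR fit or in the single voom fit. DESeq2 differed, calling 7 of the 9 and 528 genes in all where edgeR called 0, and 15 genes passed edgeR at an adjusted p under 0.10, none of them among the 9. The cause of the difference between tools was not tested. The median log2 fold change of the 9 genes was 2.48, and lay between 2.21 and 3.02 when single libraries were left out, highest without IgG replicate 2. The receptor median of 1.79 lay between 1.29 (without IgG replicate 1) and 2.51 (without IgG replicate 2) in the same fits, and was 1.30 with at least 1 CPM required in at least 2 libraries, a filter that leaves Ccr3 out. The median of the other CC ligands lay between 0.80 and 1.11. With the replicate number as a block the median over the 9 genes was 2.41 and 0 genes were called. Deviations of same-numbered libraries correlated at r = 0.0998 across genes, which are not independent replicates, so the numbers were not taken to pair samples. With 1 library in a group its spread is assumed to match that of the other group. Ccl3, Ccl4 and Xcl1 had at most 26 counts in an IgG library, which limits the precision of their fold changes.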

Other observations

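Ratios between genes of the set were computed in each library. The ratio of Ccl8 to Ccl2, in CPM with no correction for length, was 2.94 and 7.5 under IgG and 33.2 and 11.1 under PD-L1 blockade. That of Ccl4 to Ccl3 was 3.33 and 6.5 under IgG, where Ccl3 rests on 6 and 4 counts, and 1.32 and 1.11 under PD-L1 blockade. The ratio of Cxcl16 to Cxcr6 was 22.5 and 8.86 against 7.91 and 6.85. These ratios were chosen after the values were seen and carry no test.

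Among 16055 other genes with a mean of at least 1 CPM, the 5 whose profile over the 4 libraries lay nearest to the mean profile of the set were Aif1, Cd74, BC147527, Lag3 and H2-DMa. Their root-mean-square differences from it on the log2 scale were 0.084 to 0.108. Among the 9 genes this difference was 0.233 for Cxcr6, the nearest, and 0.850 for Ccl2, the farthest. Aif1, a macrophage gene, had 2.05 and 3.53 CPM against 21.8 and 15.8 CPM. Cd74, the invariant chain of MHC class II, had 169 and 387 CPM against 1844 and 1475 CPM. Lag3 encodes an inhibitory T cell receptor and H2-DMa a class II peptide loader. With 4 libraries many genes share such a profile, and it was given as a description only.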
